A study of Mus musculus with 9 samples.

Results

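The 10 genes described here encode the non-collagenous core of basement membranes. They were chosen by name: the laminin chains Lama2, Lama4, Lama5, Lamb1, Lamb2 and Lamc1, the nidogens Nid1 and Nid2, and the heparan sulfate proteoglycans Hspg2 (perlecan) and Agrn (agrin). Each matched exactly 1 of the 49315 gene identifiers in the count table, and all 10 passed the filter on low counts. Their messenger RNA was followed by poly-A RNA sequencing in pancreatic stellate cells, the fibroblast-like, matrix-producing cells of the pancreas, which had been isolated from C57BL6 mice and had immortalized through spontaneous outgrowth. All cells carried Cas9 delivered by lentivirus together with 1 guide RNA, were selected with puromycin and were used as polyclonal populations, so each library may mix edited and unedited cells. R26 normoxia (3 libraries) is cells with the control guide R26-sg1 (R26 being the Rosa26 locus, a usual neutral target) at 20% oxygen for 48 h. R26 hypoxia (3 libraries) is cells with the same guide after 48 h at 0.5% oxygen. HIF1a-ko hypoxia (3 libraries) is cells with the guide HIF1a-sg2, also held at 0.5% oxygen for 48 h. Cells with the HIF1a guide at 20% oxygen were not analysed here, so the guide and oxygen could be compared only along these lines. Because 1 guide targets each locus, a difference that belongs to the guide and a difference that belongs to the loss of HIF1a cannot be told apart. Whether the libraries within a group stem from independent cultures is not given in the labels, so p-values cover library-to-library spread alone, and that spread may be technical.

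Basement membranes are thin sheets of matrix that underlie epithelia and endothelia and surround muscle, fat and Schwann cells. Their laminins are secreted as heterotrimers of an alpha, a beta and a gamma chain, and the alpha chain carries the main binding sites for integrins and alpha-dystroglycan. Nidogens link the laminin network to collagen IV through the gamma chain, and perlecan and agrin bind laminin and nidogen and carry heparan sulfate chains that hold growth factors. HIF1a, which is stabilised when oxygen is low, forms HIF-1 together with ARNT, and HIF-1 binds the core letters ACGTG or GCGTG in DNA.

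The 250 bases before the transcription start of these genes, from RefSeq on GRCm38.p6, were searched for those core letters on both strands. RefSeq promoter entries were used for 7 of the 10 genes. Lama4, Lamc1 and Nid2 had no entry in the set used and were not searched. Lama4 was also higher in low oxygen and lower with the HIF1a guide. The 5 sequences below are shown because they hold the only matches among those genes (Lamb1, Hspg2, Agrn), or belong to genes without a match that were higher in low oxygen and lower with the HIF1a guide (Lama2, Lamb2). Each is printed 5′ to 3′ on the strand of its gene, and capitals mark a match, which reads CACGC where the motif lies on the opposite strand. The Lamb1 sequence is chr12:31265043-31265292 on the plus strand, Hspg2 is chr4:137468553-137468802 on the plus strand, Agrn is chr4:156197489-156197738 on the minus strand, Lama2 is chr10:27616943-27617192 on the minus strand, and Lamb2 is chr9:108479612-108479861 on the plus strand.
Lamb1: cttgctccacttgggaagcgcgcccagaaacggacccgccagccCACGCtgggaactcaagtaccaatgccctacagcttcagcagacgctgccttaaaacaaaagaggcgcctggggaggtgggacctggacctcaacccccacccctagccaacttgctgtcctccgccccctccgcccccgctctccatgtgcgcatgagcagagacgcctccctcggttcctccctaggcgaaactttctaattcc
Hspg2: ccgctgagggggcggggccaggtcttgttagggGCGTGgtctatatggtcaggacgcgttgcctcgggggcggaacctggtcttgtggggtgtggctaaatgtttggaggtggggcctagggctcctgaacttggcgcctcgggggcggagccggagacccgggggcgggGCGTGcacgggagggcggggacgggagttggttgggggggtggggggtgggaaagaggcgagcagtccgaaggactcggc
Agrn: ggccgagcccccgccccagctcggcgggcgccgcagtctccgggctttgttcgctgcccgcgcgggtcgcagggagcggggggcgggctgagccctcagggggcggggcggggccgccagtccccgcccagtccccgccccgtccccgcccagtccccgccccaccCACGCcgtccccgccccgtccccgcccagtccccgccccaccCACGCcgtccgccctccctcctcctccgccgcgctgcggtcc
Lama2: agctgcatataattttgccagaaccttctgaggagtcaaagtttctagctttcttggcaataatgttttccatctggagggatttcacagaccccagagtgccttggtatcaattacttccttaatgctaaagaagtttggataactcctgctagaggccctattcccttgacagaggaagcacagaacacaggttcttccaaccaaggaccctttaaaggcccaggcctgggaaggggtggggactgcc
Lamb2: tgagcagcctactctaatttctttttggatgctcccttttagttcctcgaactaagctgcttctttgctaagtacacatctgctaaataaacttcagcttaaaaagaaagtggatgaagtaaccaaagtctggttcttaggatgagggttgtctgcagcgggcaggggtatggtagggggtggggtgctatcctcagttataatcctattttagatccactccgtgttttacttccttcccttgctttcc
Lamb1 held 1 match, from -206 to -202 relative to the start. Hspg2 held 2 matches, from -217 to -213 and from -80 to -76. Agrn held 2 matches, from -84 to -80 and from -42 to -38, and its other RefSeq start held 0. The windows of Lama2, Lama5, Lamb2 and Nid1 held 0 matches. Of all 32851 promoters in the same table, 38.6% held at least 1 match, so 3 of 7 is near that share. GC content ranged from 43.6% in Lamb2 and 47.2% in Lama2 to 83.6% in Agrn, beside a median of 52.4% over all promoters. GGGCGG, the core letters of a GC box, occurred 12 times in Agrn and 5 times in Hspg2, counting both strands. It occurred 4 times in Lama5, 2 times in Lamb1, 1 time in Nid1 and 0 times in Lama2 and Lamb2. Of all promoters, 32.7% held it. None of the 5 matches of the HIF-1 core overlapped a GGGCGG. A match is a run of letters and not a bound site, and its absence says only that the letters are not in this window.

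The libraries held between 43837809 and 107840223 counts. HIF1a-ko hypoxia 1, R26 normoxia 3 and R26 hypoxia 3 had more than 1.5 times the median total and are called the deeper libraries, a class made from the data and not a group of the study. Between deeper and shallower libraries, 27.4% of all 18211 genes tested differed with group in the model, among them Lama5 (0.14 on the log2 scale, adjusted p = 0.0197), Hspg2 (0.18, adjusted p = 0.00247) and Agrn (-0.25, adjusted p = 0.0074). Adipocyte markers summed to between 0.0378 and 0.0729 CPM in the deeper libraries and to between 21.3 and 44.4 CPM in the shallower libraries. Epithelial markers summed to between 14.1 and 46.5 CPM in the deeper and between 57.8 and 107.7 CPM in the shallower libraries, and leukocyte markers to between 7.93 and 15.7 CPM and between 24.3 and 40.9 CPM. The 10 stellate cell and fibroblast markers summed to between 17001 and 18712 CPM in R26 normoxia, 18946 and 20568 CPM in R26 hypoxia, and 12954 and 13485 CPM with the HIF1a guide, with Des between 0.246 and 3.73 CPM and Lum between 0.236 and 4.04 CPM. Endothelial markers summed to between 9.69 and 14.1 CPM in the deeper and between 15.8 and 24.7 CPM in the shallower libraries, Schwann cell markers to at most 21.01 CPM, and acinar and islet markers to at most 14.03 CPM, with Amy2a1, Ins1 and Ins2 at 0. Hif1a messenger RNA was at 192 to 225 CPM in R26 normoxia, 169 to 207 CPM in R26 hypoxia and 117 to 125 CPM in HIF1a-ko hypoxia, a log2 difference of -0.60 ± 0.09 between the hypoxic groups (SE, edgeR adjusted p = 0.000358). That level does not report the HIF1a protein.

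Levels of different genes were compared as TMM-scaled CPM (a gene's share of the counts of a library, made comparable between libraries by the TMM method) per kilobase of annotated exon. The nidogen Nid1 was the most abundant of the 10 transcripts in every group, and the alpha chain Lama5 the least abundant. In R26 normoxia the mean levels per kilobase ran from Nid1 (207 ± 6.17, SD, n = 3) through Lamb2 (140.0 ± 6.08), Hspg2 (102 ± 7.59), Lamc1 (71.6 ± 1.17), Lamb1 (38.5 ± 0.847), Nid2 (22.5 ± 1.81), Lama4 (19.0 ± 0.688), Lama2 (8.23 ± 0.327) and Agrn (7.99 ± 0.847) to Lama5 (3.89 ± 0.262). Only the neighbours Lama2 and Agrn had overlapping libraries there. In R26 hypoxia no neighbours overlapped, and Lama4 (24.3 ± 0.973) stood above Nid2 (17.3 ± 1.99). In HIF1a-ko hypoxia the order was Nid1 (260.3 ± 7.87), Hspg2 (109 ± 8.01), Lamc1 (103 ± 1.93), Lamb2 (90.5 ± 4.52), Lamb1 (38.5 ± 0.985), Nid2 (28.0 ± 2.75), Lama4 (13.9 ± 0.253), Agrn (6.71 ± 0.378), Lama2 (5.05 ± 0.228) and Lama5 (4.91 ± 0.351). Hspg2 overlapped Lamc1, and Lama2 overlapped Lama5. Lamb2 stood in the second place in both R26 groups and in the fourth with the guide. Some neighbours changed places with lengths from the longest annotated transcript. Lamc1 (112) then stood above Hspg2 (110.3) and Lama2 (8.58) above Agrn (7.23) in HIF1a-ko hypoxia, and Lama4 (37.9) stood above Nid2 (23.9) already in R26 normoxia.

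**Figure D1:**
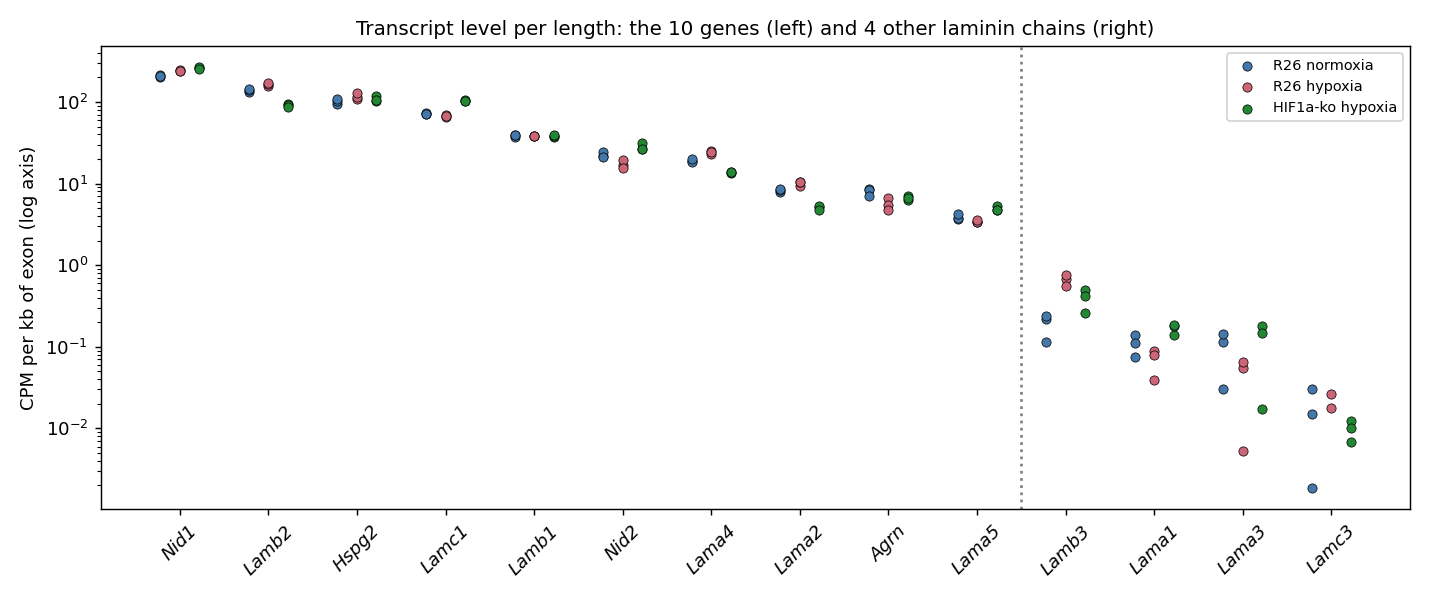
Level of the 10 genes and of 4 other laminin chains in each library, as CPM per kilobase of exon on a log axis, with points coloured by group. The 10 genes span from 3.45 (Lama5 in R26 hypoxia) to 260.3 (Nid1 in HIF1a-ko hypoxia) as group means, and the 4 other chains lie lower. The library R26 hypoxia 3 held 0 counts of Lamc3 and has no point there.

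R26 hypoxia was compared with R26 normoxia to ask how control cells respond to low oxygen. Of the 10 genes, 4 rose (Lama2, Lama4, Lamb2 and Nid1) and 2 fell (Nid2 and Agrn), by edgeR's quasi-likelihood test with Benjamini-Hochberg adjustment over all 18211 genes and a threshold of 0.05. That is 6 of 10, beside 25.2% of all genes, 12.8% higher and 12.4% lower. The 10 genes were chosen with earlier results of these data known, so such counts are a description only. The fitted differences were small, from -0.50 for Agrn to 0.36 for Lama4 on the log2 scale, with a median of 0.09 beside -0.01 over all genes. The R26 groups did not overlap for 8 of the 10 genes, 4 higher and 4 lower, beside 38.4% of all genes (19.3% higher and 19.1% lower). Among all genes called, the median size of the difference was 0.41. In a fit of only these 2 groups, 7259 genes passed with the replicate number as a block and 3964 without it, beside 4591 in the fit of all 9 libraries. Lama5, Hspg2 and Agrn passed with the block and not without it. Replicate 3 is the deeper library in both R26 groups, so the block also takes up depth class. The call for Lamb2, Nid2 or Agrn was lost when single R26 libraries were left out, as given with each gene. In a bulk library, fewer cells that make a transcript and less of it per cell cannot be told apart.

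HIF1a-ko hypoxia was compared with R26 hypoxia to ask what the HIF1a guide changes in low oxygen. Lama2, Lama4 and Lamb2 fell by 0.99, 0.81 and 0.86 on the log2 scale. Lamc1, Nid2 and Lama5 rose by 0.61, 0.70 and 0.51. Lamb1, Nid1, Hspg2 and Agrn did not pass the test. Over all genes 45.8% passed, 22% higher and 23.8% lower, so 6 of 10 is not far from that share. The median over the 10 genes was 0.06 beside -0.02 over all genes, and the median size among all genes called was 0.56. The groups did not overlap for 7 of the 10 genes, 4 higher and 3 lower, beside 54.5% of all genes (26.4% higher and 28.1% lower). Of the 10 stellate cell and fibroblast markers, 4 also fell with the guide, Pdgfra (-1.70), Col1a2 (-0.92), Col1a1 (-0.69) and Vim (-0.28), and Acta2 rose (0.54). The part of this shift in the Lama2, Lama4 and Lamb2 values was not tested. None of the 6 calls among the basement membrane genes was lost under any of the 17 alternatives.

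Against R26 normoxia, HIF1a-ko hypoxia combined both differences. Lama5, Lamc1, Nid1 and Nid2 were higher and Lama2, Lama4 and Lamb2 were lower, which is 7 of 10 beside 41.4% of all genes (19.5% higher and 21.9% lower). The groups did not overlap for 7 of the 10 genes, the exceptions being Lamb1, Hspg2 and Agrn, beside 53.2% of all genes (25.5% higher and 27.8% lower). These comparisons share libraries in pairs, so their values are set side by side below and no overlap between them is counted as a result.

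**Figure D2:**
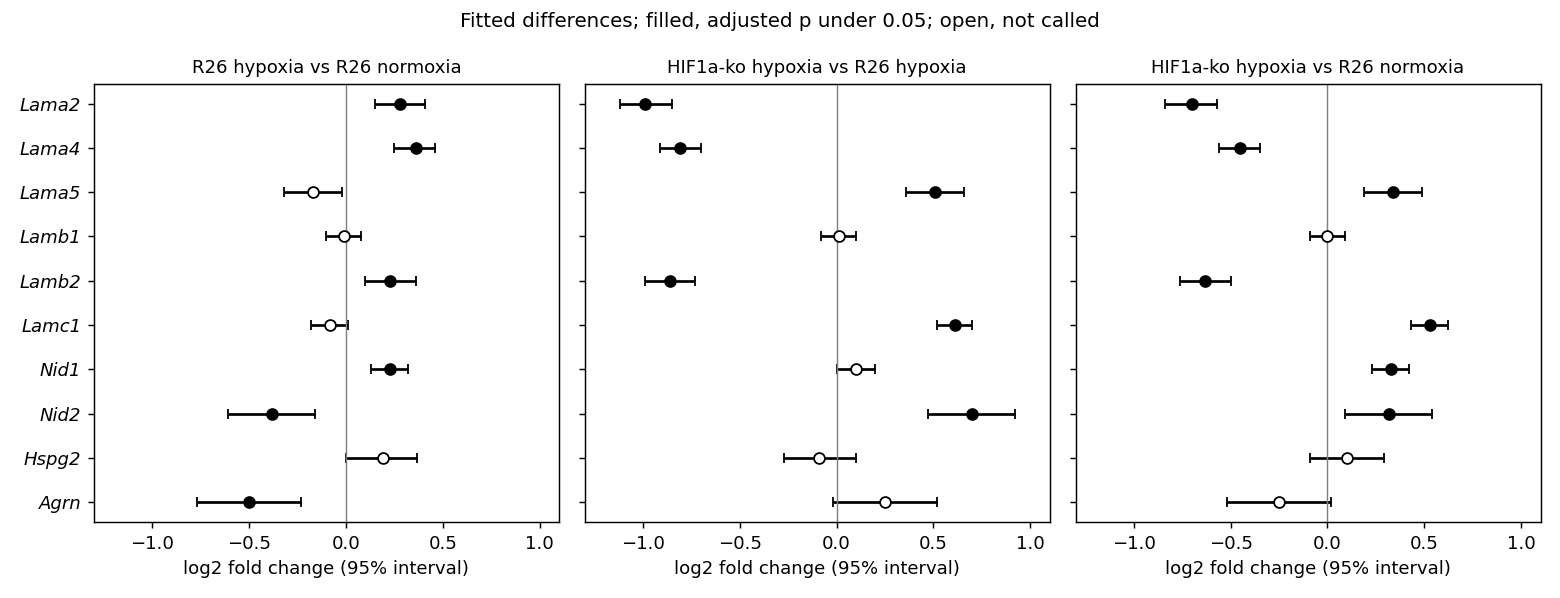
Fitted log2 fold change of each of the 10 genes with its 95% interval, 1 panel for each comparison, filled where the adjusted p is under 0.05. Lama2, Lama4 and Lamb2 lie right of 0 for oxygen and left of 0 for the guide. Lamb1 lies at 0 in all 3 panels.

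Among the alpha chains, Lama2 is the chain of muscle and peripheral nerve basement membranes and binds alpha-dystroglycan. Lama2 (ENSMUSG00000019899, GRCm38 chromosome 10, 26980036 to 27619758, minus strand) had 129, 134 and 139.8 CPM in R26 normoxia, 152, 169 and 169 CPM in R26 hypoxia, and 83.5, 85.6 and 78.4 CPM in HIF1a-ko hypoxia. The groups did not overlap, and the guide libraries were the lowest. The log2 difference was 0.28 ± 0.06 for oxygen (SE, adjusted p = 0.00686), -0.99 ± 0.06 for the guide in hypoxia (adjusted p = 1.19e-06), a 1.98-fold lower level, and -0.70 ± 0.06 against normoxia (adjusted p = 1.28e-05). An antisense gene, Gm48084, overlaps 631 bases of its exons and is not in the count table.

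Lama4 encodes the short alpha chain of vascular and mesenchymal basement membranes. Lama4 (ENSMUSG00000019846, chromosome 10, 38965515 to 39110188, plus strand) had 227, 222 and 238 CPM in R26 normoxia, 280.0, 303 and 297 CPM in R26 hypoxia, and 164, 169 and 169 CPM in HIF1a-ko hypoxia. Its order was that of Lama2, with no overlap between groups. It rose by 0.36 ± 0.05 with low oxygen (adjusted p = 0.000644), fell by 0.81 ± 0.05 with the guide in hypoxia (adjusted p = 1.05e-06) and was lower than in normoxia by a log2 difference of -0.45 ± 0.05 (adjusted p = 5.28e-05).

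Lama5 encodes the long alpha chain of epithelial and vascular basement membranes and followed the opposite order. Lama5 (ENSMUSG00000015647, chromosome 2, 180176373 to 180225859, minus strand) had 42.0, 43.1 and 47.6 CPM in R26 normoxia, 38.8, 38.5 and 40.5 CPM in R26 hypoxia and 60.6, 53.6 and 53.7 CPM in HIF1a-ko hypoxia. The highest library of each group was its deeper one, and the groups did not overlap. The guide libraries exceeded R26 hypoxia by 0.51 ± 0.07 on the log2 scale (adjusted p = 0.000192) and R26 normoxia by 0.34 ± 0.07 (adjusted p = 0.00287). For oxygen the difference was -0.17, with a 95% interval from -0.32 to -0.02 (adjusted p = 0.0921). That value was -0.15 with the replicate block in a fit of the 2 R26 groups (adjusted p = 0.0276, and 0.116 without the block) and -0.17 with depth class in the model (adjusted p = 0.00885), and both passed the test.

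The beta chains differed from each other. Lamb1 encodes the widely expressed beta chain, and Lamb2 the beta chain of mature glomerular, vascular and synaptic basement membranes. Lamb1 (ENSMUSG00000002900, chromosome 12, 31265234 to 31329644, plus strand) had 372, 386 and 387 CPM in R26 normoxia, 378, 377 and 382 CPM in R26 hypoxia and 371, 385 and 389.9 CPM in HIF1a-ko hypoxia. All 3 groups overlapped. Its log2 difference was -0.01 for oxygen (95% interval -0.10 to 0.08, adjusted p = 0.896), 0.01 for the guide in hypoxia (-0.08 to 0.10, adjusted p = 0.842) and 0.00 against normoxia (-0.09 to 0.09, adjusted p = 0.987).

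Lamb2 (ENSMUSG00000052911, chromosome 9, 108479736 to 108490530, plus strand) had 813, 856 and 886 CPM in R26 normoxia, 945, 1007 and 1036 CPM in R26 hypoxia and 577, 552 and 522 CPM in HIF1a-ko hypoxia. The groups did not overlap, and every guide library lay under every R26 library. In each group the deeper library was the highest, with a log2 difference by depth class of 0.09 (adjusted p = 0.0861). The guide libraries were 1.81-fold lower than R26 hypoxia (log2 difference -0.86 ± 0.06, adjusted p = 2.76e-06) and 1.55-fold lower than R26 normoxia (-0.63 ± 0.06, adjusted p = 2.49e-05). It rose by 0.23 ± 0.06 with low oxygen (adjusted p = 0.0187). The oxygen call was lost without R26 normoxia 1 or 2 (adjusted p = 0.0763 and 0.0557), without R26 hypoxia 2 or 3 (0.0577 and 0.055) and with no low-count filter (0.0602).

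Lamc1 encodes the gamma chain found in most laminins. Lamc1 (ENSMUSG00000026478, chromosome 1, 153218922 to 153332786, minus strand) had 583, 602 and 592 CPM in R26 normoxia, 548, 578 and 553 CPM in R26 hypoxia and 852, 871 and 839 CPM in HIF1a-ko hypoxia. The guide libraries stood far above both R26 groups. It was 1.53-fold higher with the guide in hypoxia (log2 difference 0.61 ± 0.04, adjusted p = 3.02e-06), and it stood 0.53 ± 0.04 above normoxia (adjusted p = 9.70e-06). The oxygen difference was -0.08 (95% interval -0.18 to 0.01, adjusted p = 0.195), although the R26 groups did not overlap.

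**Figure D3:**
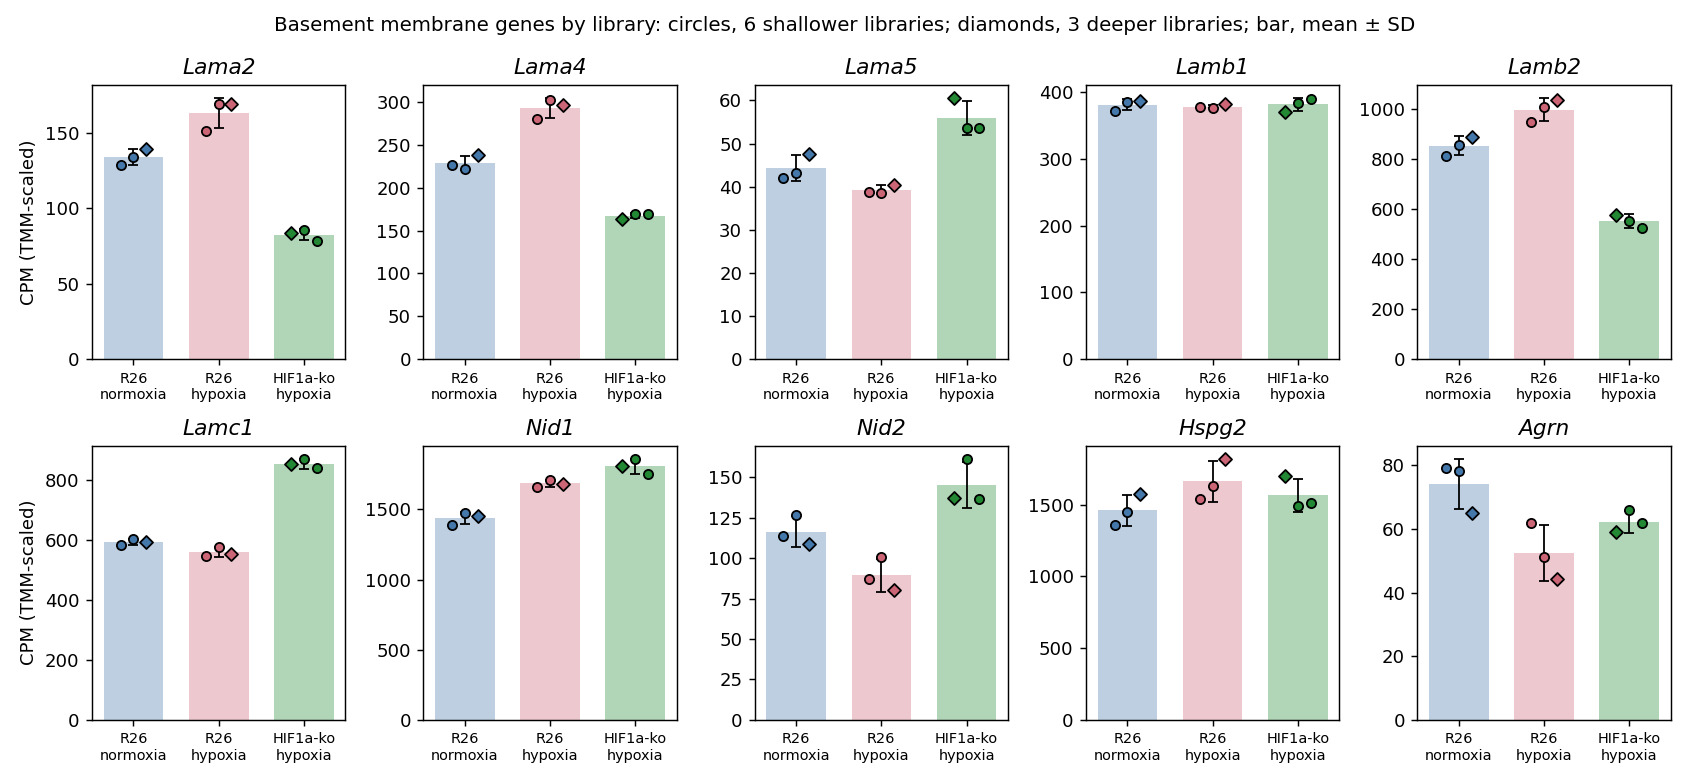
TMM-scaled CPM of each of the 10 genes in each library, with circles for the 6 shallower and diamonds for the 3 deeper libraries, bars at the group mean and error bars of 1 SD. Lama2, Lama4 and Lamb2 are lowest with the HIF1a guide, Lamc1, Nid2 and Lama5 are highest with it, and Lamb1 is level between 371 and 389.9 CPM.

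The nidogens, which bridge laminin and collagen IV, moved in opposite directions with low oxygen. Nid1 (ENSMUSG00000005397, chromosome 13, 13437551 to 13512269, plus strand) had 1393, 1476 and 1452 CPM in R26 normoxia, 1663, 1713 and 1681 CPM in R26 hypoxia and 1809.8, 1861 and 1752 CPM in HIF1a-ko hypoxia. The groups did not overlap, and the guide libraries were highest. It rose by 0.23 ± 0.04 with low oxygen (adjusted p = 0.0046) and was 0.33 ± 0.04 above normoxia in the guide libraries (adjusted p = 0.000248). Between the hypoxic groups the difference was 0.10 (95% interval 0.00 to 0.20, adjusted p = 0.0874), and it passed without HIF1a-ko hypoxia 3 (0.14, adjusted p = 0.0459) and by DESeq2 (0.11, adjusted p = 0.0419). The oxygen call was lost with no low-count filter (adjusted p = 0.0543). An antisense gene, Gm48682, overlaps 143 bases of its exons and is not in the count table, and 3.22% of its 50-base words also occur in other genes.

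Nid2 (ENSMUSG00000021806, chromosome 14, 19751265 to 19811787, plus strand) had 114, 127 and 109 CPM in R26 normoxia, 87.3, 101 and 80.3 CPM in R26 hypoxia and 137, 161 and 136 CPM in HIF1a-ko hypoxia. R26 hypoxia was the lowest group and the guide libraries the highest, with no overlap. Nid2 fell by 0.38 ± 0.10 with low oxygen (adjusted p = 0.0208) and stood 0.70 ± 0.10 higher with the guide in hypoxia (adjusted p = 0.000332) and 0.32 ± 0.10 above normoxia (adjusted p = 0.0282). The oxygen call was lost without R26 normoxia 1 or 2 (adjusted p = 0.0514 and 0.0815) or R26 hypoxia 1 or 3 (0.0625 and 0.0567). The call against normoxia was lost without R26 normoxia 1 or 3 (0.0863 and 0.0665) or HIF1a-ko hypoxia 2 (0.103).
Nid2 shares 437 bases of exon, 8.45% of its exon length, with Rtraf on the opposite strand, and the strand setting of the counting is not given in the sources used here. Rtraf, a gene of RNA metabolism, was at 88.4 ± 1.32, 83.0 ± 2.38 and 99.8 ± 5.76 CPM in the 3 groups (SD, n = 3), with log2 differences of -0.09 for oxygen (adjusted p = 0.213) and 0.27 for the guide in hypoxia (adjusted p = 0.00147). Its part in the Nid2 values was not tested.

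Of the proteoglycans, agrin fell with low oxygen, and perlecan passed the test in no comparison. Hspg2 (ENSMUSG00000028763, chromosome 4, 137468769 to 137570630, plus strand) had 1356, 1450.5 and 1572 CPM in R26 normoxia, 1536, 1628 and 1819 CPM in R26 hypoxia and 1697, 1489 and 1509 CPM in HIF1a-ko hypoxia. The groups overlapped in every comparison, and the highest library of each was its deeper one. The log2 difference was 0.19 for oxygen (95% interval 0.00 to 0.37, adjusted p = 0.137), -0.09 for the guide in hypoxia (-0.27 to 0.10, adjusted p = 0.44) and 0.10 against normoxia (-0.09 to 0.29, adjusted p = 0.377). The oxygen difference passed the test with the replicate block in a fit of the 2 R26 groups (0.21, adjusted p = 0.0011, and 0.101 without the block), with depth class in the model (0.19, adjusted p = 0.00348) and among the 6 shallower libraries alone (0.19, adjusted p = 0.0165).

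Agrin organises the neuromuscular synapse and is also made by many epithelial and stromal cells. Agrn (ENSMUSG00000041936, chromosome 4, 156165290 to 156197488, minus strand) had 79.3, 78.2 and 65.1 CPM in R26 normoxia, 61.9, 51.2 and 44.2 CPM in R26 hypoxia and 58.9, 65.9 and 61.9 CPM in HIF1a-ko hypoxia. The R26 groups did not overlap, and the lowest library of each group was its deeper one. Agrn fell by 0.50 ± 0.12 with low oxygen (adjusted p = 0.0141), the largest oxygen difference among the 10 genes. That call was lost without R26 normoxia 1 or 2 (adjusted p = 0.0565 and 0.0551), without R26 hypoxia 2 (0.0509) and when only those 2 groups were fitted (0.0505). The guide libraries overlapped both R26 groups, at 0.25 above R26 hypoxia (95% interval -0.02 to 0.52, adjusted p = 0.122) and -0.25 from normoxia (-0.52 to 0.02, adjusted p = 0.126). With depth class in the model both passed (0.26, adjusted p = 0.00493, and -0.25, adjusted p = 0.00754). The first also passed without R26 hypoxia 1 (0.38, adjusted p = 0.0161), and the second among the shallower libraries (-0.28, adjusted p = 0.00757) and with only its 2 groups fitted (-0.25, adjusted p = 0.0416).

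Makeup within each chain class was then measured as a percentage of CPM per kilobase, a ratio inside a library that no scaling between libraries changes. Of the alpha chain transcripts (Lama1 to Lama5), Lama4 made up 60.6% ± 0.689 in R26 normoxia, 64.2% ± 0.332 in R26 hypoxia and 57.5% ± 1.29 in HIF1a-ko hypoxia (SD, n = 3). Lama5 made up 12.03%, 12.4% and 12.8% in the libraries of R26 normoxia, 9.46%, 8.69% and 9.22% in R26 hypoxia and 22%, 19.3% and 19.7% in HIF1a-ko hypoxia. The Lama5 share was thus lowest in control cells in low oxygen and highest with the guide, and the groups did not overlap. Lama2 made up 26.3%, 26.4% and 20.9% on average. The Lamb2 share of beta chains (Lamb1 to Lamb3) was 78.4% ± 0.427, 80.8% ± 0.678 and 69.9% ± 1.61. For each Lama4, Lama5 and Lamb2 comparison the exact two-sided permutation p was 0.1, the smallest that 3 against 3 libraries allow, and 0.125 after Benjamini-Hochberg adjustment over 15 share tests, so no share could pass the threshold.

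The Nid2 share of nidogens was 9.78% ± 0.616 in R26 normoxia, 6.64% ± 0.643 in R26 hypoxia and 9.71% ± 0.633 in HIF1a-ko hypoxia. The difference was -3.15 points for oxygen and 3.08 points for the guide in hypoxia (exact permutation p = 0.1 each, adjusted 0.125), and the guide libraries overlapped normoxia (exact permutation p = 1). Agrn made up 7.31% ± 1.17, 4.69% ± 1.12 and 5.80% ± 0.666 of the Agrn and Hspg2 transcripts. Its differences were -2.62 points for oxygen (exact permutation p = 0.1, adjusted 0.125) and 1.11 points for the guide in hypoxia (exact permutation p = 0.2, adjusted 0.214). With lengths from the longest annotated transcript in place of the exon union, the Lama5 share was 6.94%, 5% and 11.8%, so its level depends on the length used while its order over the groups does not.

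**Figure D4:**
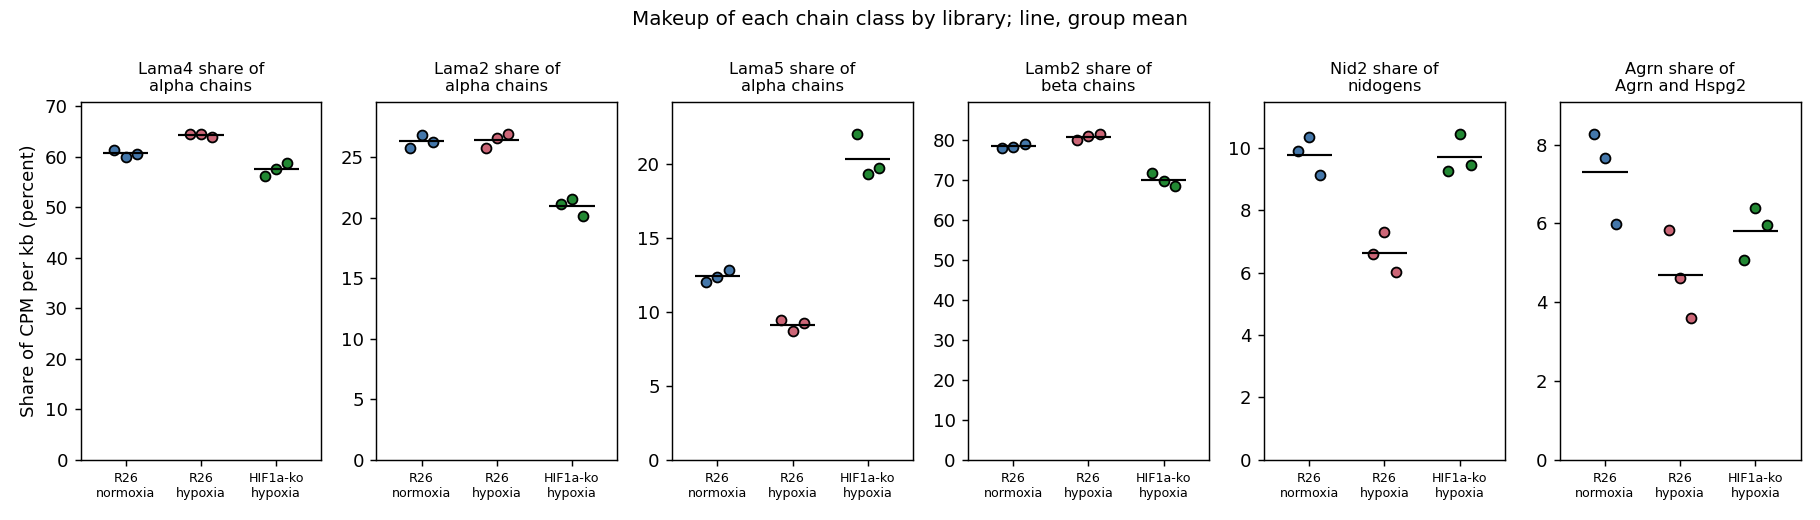
Share of each chain within its class in each library, as a percentage of CPM per kilobase, with a line at the group mean. The Lama5 share lies between 8.69% and 9.46% in R26 hypoxia and between 19.3% and 22% in HIF1a-ko hypoxia.

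Summed over each class, alpha chains stood at 31.3 ± 1.11, 37.8 ± 1.58 and 24.1 ± 0.234 CPM per kilobase in control normoxia, control hypoxia and guide hypoxia (SD, n = 3). Beta chains stood at 179 ± 6.84, 203 ± 7.75 and 129 ± 3.53, and gamma chains at 72.1 ± 1.17, 68.4 ± 1.87 and 105 ± 2.09. Alpha and beta sums were thus lowest and the gamma sum highest with the HIF1a guide, and the 3 groups did not overlap in any class. No test was run on these sums. Levels between classes depend on the length used. In R26 normoxia Lama4 stood at 19.0 with the exon union and 37.9 with the longest transcript, and Lamc1 at 71.6 and 77.7.

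The 5 genes whose pattern over the 9 libraries was most like that of Lamc1 were Samd8, Cdkn2aipnl, Fam126a, Hexa and Ilf2. Likeness was the root mean square difference of centred log2 CPM, among the 9960 genes whose mean log2 CPM was 3 or more, and it ran from 0.045 to 0.055 for these genes beside a median of 0.327. Lamb1, a common partner of Lamc1 in laminin trimers, had a difference of 0.269, close to the 0.272 of a flat gene. Likeness of pattern is given as a description only.

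Among the other laminin chains, Lamb3, a beta chain known from epithelial anchoring, was present at low level. It rose with low oxygen from 1.26 ± 0.443 to 4.41 ± 0.667 CPM (log2 difference 1.82, adjusted p = 0.00302). Lama1, the alpha chain of early embryonic basement membranes, rose by 1.31 with the guide in hypoxia, from 0.667 ± 0.253 to 1.64 ± 0.251 CPM (adjusted p = 0.0106). Lama3 lay between 0.0567 and 0.327 CPM in the deeper and between 0.587 and 1.95 CPM in the shallower libraries and did not pass the test in the main model (log2 difference -1.24 for oxygen, adjusted p = 0.435, and 1.5 for the guide in hypoxia, adjusted p = 0.26). With depth class in the model Lama3 passed in both (-1.40, adjusted p = 0.00246, and 1.47, adjusted p = 0.000739). In that model Lama1 also passed for oxygen (-0.69, adjusted p = 0.0217) and Lamb3 for the guide in hypoxia (-0.81, adjusted p = 0.000377). Epithelial markers differed by depth class as given above, and for oxygen 2 of the 7 rose, Krt19 (1.52) and Muc1 (1.26), 0 fell, and the median was -0.05. Their part in the Lamb3 values was not tested.

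Of 8 basement membrane collagens, 1 rose and 2 fell with low oxygen, and 2 rose and 3 fell with the guide in hypoxia, with medians of -0.07 and -0.09. For this and the following lists, the shares to set these counts beside are 25.2% of all genes for oxygen (12.8% higher and 12.4% lower) and 45.8% for the guide in hypoxia (22% higher and 23.8% lower). Col4a1, a chain of the main collagen IV network, was at 1009.5 ± 36.9, 822 ± 34.6 and 1144 ± 15 CPM in the 3 groups. It fell by 0.30 with low oxygen (adjusted p = 0.00199) and rose by 0.48 with the guide in hypoxia (adjusted p = 3.53e-05). Its partner Col4a2 changed by -0.17 and 0.23. Col18a1, whose protein carries heparan sulfate and yields endostatin, rose by 0.69 and was lower with the guide by a log2 difference of -0.74. Col15a1, a collagen at the outer face of basement membranes, was at 106 ± 19.8 CPM in R26 hypoxia and 37.3 ± 1.43 CPM with the guide (log2 difference -1.50, adjusted p = 9.19e-06).

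Of 16 other basement membrane proteins 14 were tested. With low oxygen 5 rose, led by Smoc1 (1.23), Tinagl1 (0.70) and Smoc2 (0.59), and 2 fell, Ntn4 (-0.53) and Frem1 (-0.32). With the guide in hypoxia 5 rose, led by Fras1 (1.44), Ntn4 (1.41) and Npnt (1.28), and 4 fell, among them Smoc1 (-1.61), Frem1 (-1.29) and Hmcn1 (-1.17). Ntn4 encodes a netrin that binds the laminin gamma chain and loosens the laminin network, and was at 22.6 ± 0.841, 15.7 ± 1.25 and 41.7 ± 3.26 CPM in the 3 groups. Npnt encodes nephronectin, an integrin ligand, and Smoc1 and Smoc2 calcium-binding proteins related to Sparc. The medians over the list were 0.07 for oxygen and -0.02 for the guide.

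Among the receptors 11 of 12 were tested, 4 rose and 1 fell with low oxygen, and 4 rose and 4 fell with the guide in hypoxia (medians 0.04 and -0.33), beside 25.2% and 45.8% of all genes. Dag1, which encodes dystroglycan, was at 509.6 ± 8.26, 617 ± 2.64 and 396 ± 10.9 CPM, with log2 differences of 0.28 (adjusted p = 0.00116) and -0.64 (adjusted p = 1.75e-06). Itga6, a laminin-binding integrin subunit, was at 13.9 ± 1.87, 10.5 ± 2.30 and 35.1 ± 0.635 CPM and rose by 1.75 with the guide (adjusted p = 1.50e-05). The syndecan Sdc4 changed by 0.39 and -0.99, and the syndecan Sdc1 by -0.32 and 0.86. Itgb4, the partner of Itga6 in hemidesmosomes, changed by 0.67 and -0.51.

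Of the 10 genes that build the laminin-binding glycan of alpha-dystroglycan, 3 rose and 1 fell with low oxygen and 2 rose and 1 fell with the guide in hypoxia (medians 0.09 and 0.12). Pomt1, which starts the glycan by adding mannose, rose with low oxygen from 24.3 ± 1.89 to 32.1 ± 2.68 CPM (log2 difference 0.40), and Rxylt1 fell by 0.28. B4gat1, which makes the primer for the outer glycan, was lower with the guide by a log2 difference of -0.53 (adjusted p = 3.96e-05). With depth class in the model 4 of the 10 rose with the guide. The share of all genes in that model is not reported here, so that count is a description only.

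Of 18 genes of heparan sulfate synthesis and editing, the chains that perlecan and agrin carry, 3 rose and 2 fell with low oxygen, and 5 rose and 9 fell with the guide in hypoxia (medians 0.01 and -0.12), beside 25.2% and 45.8% of all genes. Hpse, the heparanase that cuts these chains, was at 4.89 ± 0.707, 18.7 ± 1.73 and 6.60 ± 0.696 CPM, with log2 differences of 1.94 (adjusted p = 1.41e-05) and -1.50 (adjusted p = 1.15e-05). Hs6st2, a sulfotransferase, was at 29.9 ± 2.35, 24.9 ± 2.10 and 66.3 ± 2.50 CPM and rose by 1.41 with the guide (adjusted p = 7.70e-07). The chain polymerases differed, Ext1 at -0.69 and Ext2 at 0.31 for the guide.

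**Figure D5:**
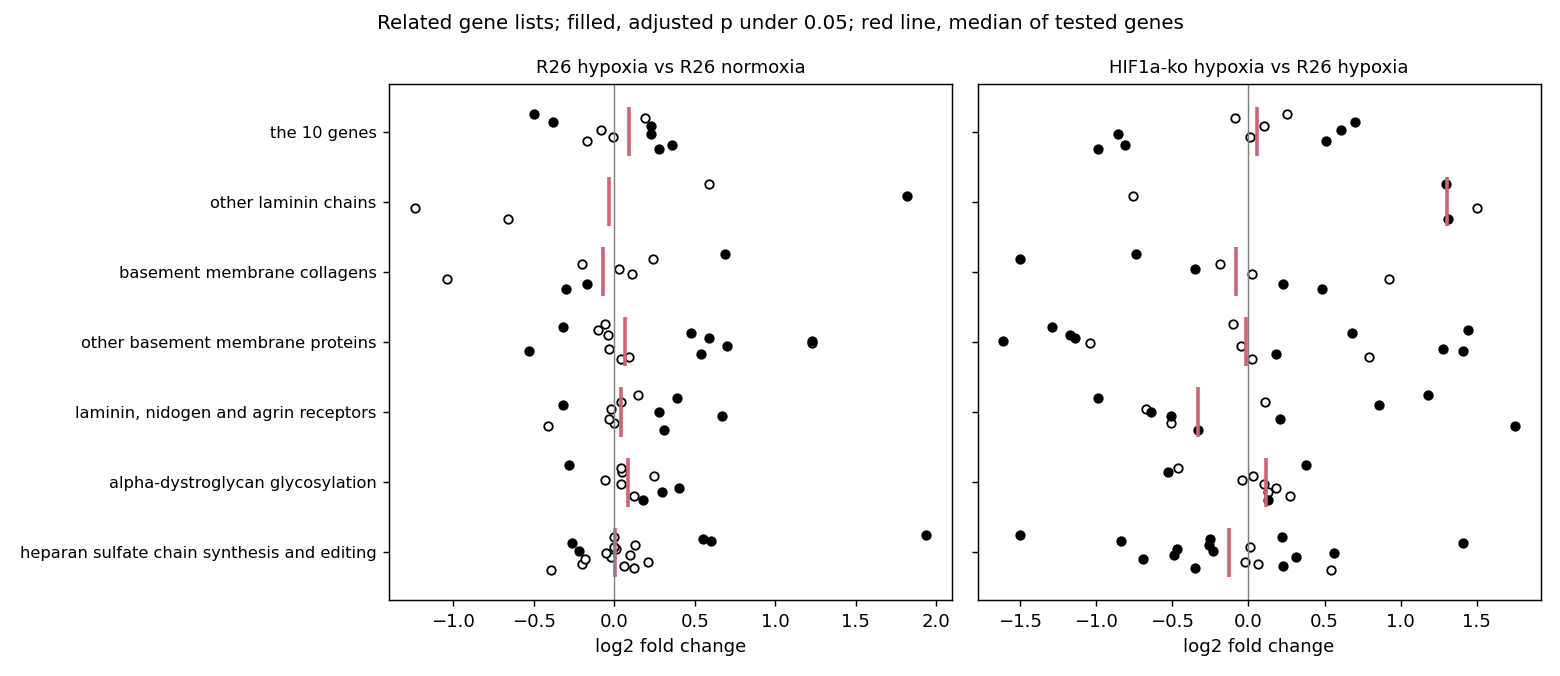
Log2 fold change of every tested gene of the 10 and of the related lists, for low oxygen (left) and for the guide in hypoxia (right), filled where the adjusted p is under 0.05, with a red line at the median. Each list holds genes on both sides of 0 in both panels, and the medians lie between -0.07 and 0.09 for oxygen.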

How the data were processed

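The deposited table holds raw read counts per gene for 9 libraries. Per the submitters' processing notes, the authors used bcl2fastq 2.17, Trimmomatic, STAR, featureCounts, DESeq2 and GRCm38, with no role or order given, and per the labels' protocols the libraries came from poly-A RNA. Of 49315 identifiers, 49056 were paired with GENCODE M21 symbols.

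Counts were analysed as deposited with edgeR 4.0.16 in R 4.3.3 (TMM scaling, filterByExpr, quasi-likelihood test, group as the only term, all 9 libraries, 18211 genes, two-sided, Benjamini-Hochberg adjustment, called at an adjusted p under 0.05). SE is the size of the log2 fold change divided by the square root of F. The fit was tested on data simulated with no difference by depth class or replicate, so that test does not bear on such differences. Levels between genes are CPM per kilobase of exon union. Shares were compared by exact permutation tests. Libraries of the same number were blocked only in an alternative fit, and the main model holds no replicate term. For same-numbered R26 libraries, the correlations of deviations from the group means were 0.501, 0.553 and 0.862. R26 normoxia 3 and R26 hypoxia 3 are both deeper libraries, so a pairing and depth class cannot be told apart from these correlations. No replicate pair agreed within sampling noise. The 10 genes and the related lists were chosen with earlier results of these data known. Each comparison names all 10 genes, Hif1a, and up to 3 called genes per related list and direction. The 5 genes most like Lamc1 were named by likeness. Some genes of the related lists are not reported here. Alternatives were DESeq2 1.42.0, other scaling and filters, a replicate block, depth class, only the groups compared, and leaving out each library. The depth class counts and values for the related lists were added after seeing the data.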

Additional observations from a re-analysis of the deposited data

How the results depend on the processing

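Across 17 alternatives and 10 genes, the values that kept direction and side of the threshold were 143 of 170 for oxygen, 166 of 170 for the guide in hypoxia and 161 of 170 for the guide against normoxia. Lama2 and Lama4 kept both in all 3 comparisons. For oxygen, genes called over the whole table numbered 6959 with depth class as a term beside 4591 in all 9 libraries, and 7259 with the replicate block beside 3964 without it in fits of the 2 R26 groups. Beside the fit of all 9 libraries, the block added calls for Lama5 and Hspg2 and changed no other call among the 10 genes. Between HIF1a-ko hypoxia and R26 hypoxia libraries of the same number, the correlations were -0.681, 0.608 and -0.688. The deeper libraries there were HIF1a-ko hypoxia 1 and R26 hypoxia 3. Numbers 1 and 3, where depth class differed between the 2 groups, gave the negative values. Number 2, where both libraries were shallower, gave the positive value. A pairing beside depth class was not tested. Fits of those 2 groups called 6761 genes with the block and 7999 without it. The members higher with oxygen numbered 2 with no low-count filter, beside 4. The members lower with oxygen numbered 1 when only the 2 groups were fitted, beside 2, and 0 to 2 when each library was left out. The cause of these moves was not tested, except that leaving out a library leaves fewer samples. Lamb1, near 0, turned sign for oxygen to 0.01 with no low-count filter, a mean CPM of at least 1, the shallower libraries, only the 2 groups or the replicate block, and ran from -0.03 to 0.01 without single libraries. Against normoxia it ran from -0.02 to 0.04 without single libraries. The Nid2 share of nidogens against normoxia, -0.0702 points, ran from -0.43 to 0.208 points without single libraries and turned sign without HIF1a-ko hypoxia 1 (0.165), HIF1a-ko hypoxia 3 (0.0544) or R26 normoxia 2 (0.208). Depth class as a term also moved some counts of related genes, added after seeing the data. Other laminin chains lower with oxygen went from 0 to 2 of 4 tested. Receptors lower against normoxia went from 2 to 4 of 11, and dystroglycan glycosylation genes higher with the guide from 2 to 4 of 10. Other counts stayed, such as collagens lower with oxygen (2 of 8) and heparan sulfate genes lower with the guide (9 of 18). Shares of all genes by direction in that model are not reported here, so these counts are a description only. The SE of the 10 genes ran from 0.04 to 0.12, with the highest for Agrn, and Lamc3 was too low to test.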
